A study of Mus musculus with 11 samples.

Results

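The first 5 Mb of assembled sequence on mouse chromosome 14 hold a cluster of near-identical predicted genes related to the takusan family, and read depth over this cluster was measured in 11 low-coverage whole-genome sequencing libraries of mouse embryonic stem cells (mESC). The region comprised all bins whose midpoint lay in chr14:3000001-8006007 of mm10, which gave 100 of the 52958 bins of about 50 kb in each file. It was chosen because depth there was high in the single library of cells without DNA methyltransferases. That contrast is therefore described without a test. Values are relative depth, which is the depth of a bin divided by the median autosomal bin depth of the same library, so that 1 is the level of a sequence present as often as a typical autosomal bin.

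Takusan genes form a large gene family of the mouse, known from neurons, where a takusan protein acts on synaptic scaffolds. The family is thought to descend from a duplicated piece of Dlg5, a gene for a scaffold protein of the membrane-associated guanylate kinase group. Clusters of this kind are difficult to assemble and can differ in copy number between mouse strains. The annotation used here (GENCODE M21) gives the cluster genes as numbered predicted genes and does not use the takusan name. What was measured is DNA, not expression.

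The 11 libraries fell into 7 groups. All Ctrl cells carried Cre/ERT2 and the reporter Rosa26-LSL-H2b-Egfp, which turns on nuclear green fluorescence after recombination. Tet iTKO cells carried in addition Tet1,2,3 fl/fl, so that tamoxifen removes all Tet enzymes, the oxidases that start DNA demethylation. Each genotype had 1 library before treatment, 1 acute library and 3 long-term libraries. The acute cells had 1 µM tamoxifen for 2.5 days and then 4 days without it. The long-term cells also had 1 µM tamoxifen for 2.5 days and came from monoclonal populations kept for 30 days. Dnmt1,3a,3b TKO cells, which lack the DNA methyltransferases and have no inducible allele, gave 1 long-term library. Per the methods, these cells had been described before. All cells were grown in 2i medium on embryonic fibroblast feeders and were sorted as live CD326+ Thy1.2- cells, the Ctrl and Tet iTKO cells also by GFP. The Ctrl and Tet iTKO mice were on a C57BL/6 background, as is the reference genome, whereas the strain of the Dnmt TKO line is not given in the sources used here. Genotype, strain and line therefore cannot be told apart in any comparison with Dnmt TKO. The paper's reporting summary gives 3 mESC populations from different embryos for each genotype, as a general statement on its experiments. Long-term clones were grown from single sorted cells, per the paper. The labels do not tie a library to an embryo or a clone, so p-values measure the spread between these libraries. Libraries held 555 to 812 Mb of aligned bases, or a median of 215 to 315 reads per autosomal bin. Median relative depth of the Y chromosome was 0.027 to 0.038 in the 4 early (pre-treatment and acute) libraries and 0.457 in Dnmt TKO. It was 0.463 to 0.470 in the 3 long-term Ctrl libraries and 0.549 to 0.558 in the 3 long-term Tet iTKO libraries. Median relative depth of the X chromosome was 0.560 to 0.572 in the early and long-term libraries of both genotypes. The labels do not say whether early and long-term libraries come from the same lines. All long-term libraries of both genotypes had tamoxifen, whereas the pre-treatment libraries among the early ones did not. Stage therefore cannot be told apart from line, Y depth or, for the pre-treatment libraries, tamoxifen. Genotype among the long-term libraries cannot be told apart from line or Y depth.

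The region held 104 protein-coding genes, 58 processed pseudogenes, 11 unprocessed pseudogenes, 4 lincRNA genes and 9 processed transcripts. Of the protein-coding genes, 98 had a Gm number as their symbol. Gm2888 (chr14:3030002-3038762), Gm2897 (chr14:3049285-3076840) and Gm10340 (chr14:3133997-3141609), all on the plus strand, are the first named members. The sequences before the starts of Gm2888 and Gm2897 show how alike the copies are and why a short read can match many places. The 250 bases before the RefSeq start of each gene (GRCm38.p6) are given below with their closest full-length copy elsewhere in the region and, for Gm2888, with its closest copy in a detached stretch of chromosome 14 described further on. Lower case marks bases shared with the annotated gene, and capitals mark bases that differ from it.
Gm2888, chr14:3029668-3029917, plus strand: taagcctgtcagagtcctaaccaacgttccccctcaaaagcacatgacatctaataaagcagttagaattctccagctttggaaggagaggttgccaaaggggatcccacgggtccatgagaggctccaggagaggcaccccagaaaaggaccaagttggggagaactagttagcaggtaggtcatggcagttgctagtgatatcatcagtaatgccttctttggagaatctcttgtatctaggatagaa
Gm2888 copy, chr14:4481469-4481718, plus strand: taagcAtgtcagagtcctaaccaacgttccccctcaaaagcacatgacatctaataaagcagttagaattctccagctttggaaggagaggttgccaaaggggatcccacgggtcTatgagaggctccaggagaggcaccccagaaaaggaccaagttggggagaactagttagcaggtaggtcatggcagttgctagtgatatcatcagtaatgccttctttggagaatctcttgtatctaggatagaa
Gm2888 copy, chr14:19602608-19602857, minus strand: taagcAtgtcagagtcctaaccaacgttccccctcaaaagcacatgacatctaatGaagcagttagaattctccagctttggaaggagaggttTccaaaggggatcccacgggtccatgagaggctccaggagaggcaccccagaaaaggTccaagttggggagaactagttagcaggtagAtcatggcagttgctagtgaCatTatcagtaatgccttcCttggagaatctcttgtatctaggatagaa
Gm2897, chr14:3049035-3049284, plus strand: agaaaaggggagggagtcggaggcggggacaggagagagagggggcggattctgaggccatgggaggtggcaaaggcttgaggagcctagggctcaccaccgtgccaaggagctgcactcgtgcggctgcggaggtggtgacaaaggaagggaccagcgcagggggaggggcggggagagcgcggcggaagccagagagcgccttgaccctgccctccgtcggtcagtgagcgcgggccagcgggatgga
Gm2897 copy, chr14:7568475-7568724, minus strand: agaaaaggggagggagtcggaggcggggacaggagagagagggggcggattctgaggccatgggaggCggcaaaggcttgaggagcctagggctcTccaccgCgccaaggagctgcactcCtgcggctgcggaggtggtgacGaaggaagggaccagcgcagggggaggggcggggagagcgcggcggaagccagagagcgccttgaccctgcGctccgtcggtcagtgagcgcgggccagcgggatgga

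The 2 starts differed in how often they occurred. The Gm2888 sequence had 109 aligned copies of 200 bases or more on chromosome 14, itself included, of which 106 lay in the region and 3 in the detached stretch. The other copies were 86.0% to 99.2% identical to it, and 2.73% of its 31-mers (all runs of 31 bases, read on both strands) were unique in the genome. The Gm2897 sequence had 5 copies, all in the region, with 94.4% to 97.6% identity, and 56.8% of its 31-mers were unique in the genome. The Gm2897 start was also richer in G and C, at 68.4% against 47.6% for Gm2888, and held 18 CG dinucleotides against 2. The bins that held the 5 copies of the Gm2897 start had Dnmt TKO relative depths 1.71 to 2.56 times those of long-term Ctrl, and the bins with copies of the Gm2888 start 1.27 to 3.41 times.

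The last exon of the 3 members, which ends the coding sequence and carries the 3′ UTR, was copied about as often as the Gm2888 start. Alignments of 900 bases or more to the last exon of Gm2888 numbered 105 in the region, with 92.8% to 100% identity and a median of 94.5%, 48 on the plus strand and 57 on the minus strand. They were spread over 77 of the 100 bins, with at most 3 in a bin. The last exons of Gm2897 and Gm10340 found the same number of places. A Dlg5 transcript aligned to the region in 11 stretches of 214 to 258 bases at 69.4% to 71.0% identity.

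The region was not one uniform block. In 94 bins from its start to 7705646, at least 58.1% of 31-mers occurred again within the region (median over bins 94.3%). The median 31-mer of a bin was found 3 to 29 times, and a median of 4.47% of 31-mers were unique in the genome. In the last 6 bins, chr14:7705647-8006007, 1.30% to 15.9% of 31-mers were repeated in the region and 57.8% to 96.4% were unique. This border was set after seeing the data, and the bins are called repeated and remaining bins. The remaining bins hold Gm26661, Gm45521 and genes with established names, among them Dnase1l3, a secreted DNase, and the start of Abhd6, a lipid hydrolase. BWA-mem by default places a read that fits several copies equally in one of them, so that the depth of a repeated bin can include reads from other copies.

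Mean relative depth of the 94 repeated bins was 1.88 in Dnmt TKO, from 40367 reads, with a 95% counting interval of 0.976% to either side. In Ctrl it was 0.931 before treatment and 0.940 after acute treatment. In Tet iTKO it was 0.913 before treatment and 0.941 after acute treatment. The long-term Ctrl libraries had 0.956, 0.955 and 0.957, and the long-term Tet iTKO libraries 0.930, 0.942 and 0.923. Dnmt TKO was thus 1.97-fold above the mean of long-term Ctrl, and between 1.97- and 2.06-fold above each of the other 10 libraries, which lay within 0.913 to 0.957. Summed over these bins, the depth of Dnmt TKO in excess of long-term Ctrl equalled that of 4.35 Mb at the autosomal median, for 4.71 Mb of assembled sequence. Intervals cover counting error only.

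The remaining bins and the flank did not share the high depth of the repeated bins. In the 6 remaining bins Dnmt TKO had a mean of 1.01, below the 1.08 to 1.15 of the other 10 libraries. In the flank, the 60 bins of the following 3 Mb, it had 0.956, against 0.976 to 1.02. Over all 100 bins of the region the mean was 1.83 in Dnmt TKO and 0.926 to 0.966 in the others, and the fold over long-term Ctrl was 1.90.

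**Figure D1:**
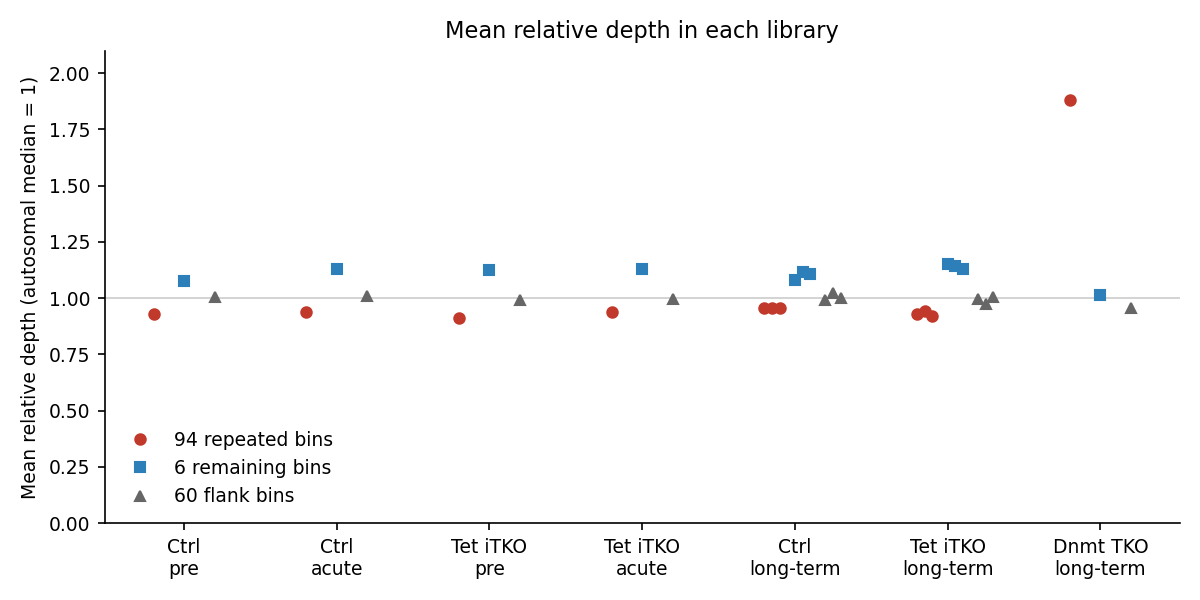
Mean relative depth (vertical axis, autosomal median = 1) of the 94 repeated bins (circles), the 6 remaining bins (squares) and the 60 flank bins (triangles), 1 symbol per library, by group. The repeated bins sit at 1.88 in Dnmt TKO and between 0.913 and 0.957 in all other libraries, whereas remaining and flank bins of Dnmt TKO lie at 1.01 and 0.956.

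Along the cluster, the Dnmt TKO depth was uneven. All 94 repeated bins had a higher relative depth in Dnmt TKO than in any of the other 10 libraries, and none of the 6 remaining bins did, of which 3 lay below all 10. The share of all autosomal bins with Dnmt TKO above all 10 was not counted. Such counts, here and for genes and bins further on, are therefore descriptions without a background. Folds over long-term Ctrl ranged from 1.21 to 3.41 in the repeated bins, with a median of 1.91 and quartiles of 1.64 and 2.17. Of the 100 bins, 86 had a fold of 1.5 or more and 38 a fold of 2 or more. Over all autosomal bins, 1.38% had a fold of 1.5 or more and 0.169% a fold of 2 or more. These bins were not split by chromosome, although the paper reports aneuploidies in the Dnmt TKO line it used. Since the region was chosen on this contrast, its share is a description. The SD over the repeated bins was 0.410 in Dnmt TKO, where reads of an average bin give a counting SD of 0.0908. In the other 10 libraries the SD over bins was 0.0544 to 0.0743, beside a counting SD of 0.0550 to 0.0666, so that the cluster was flat in those libraries to about the resolution of the reads.

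**Figure D2:**
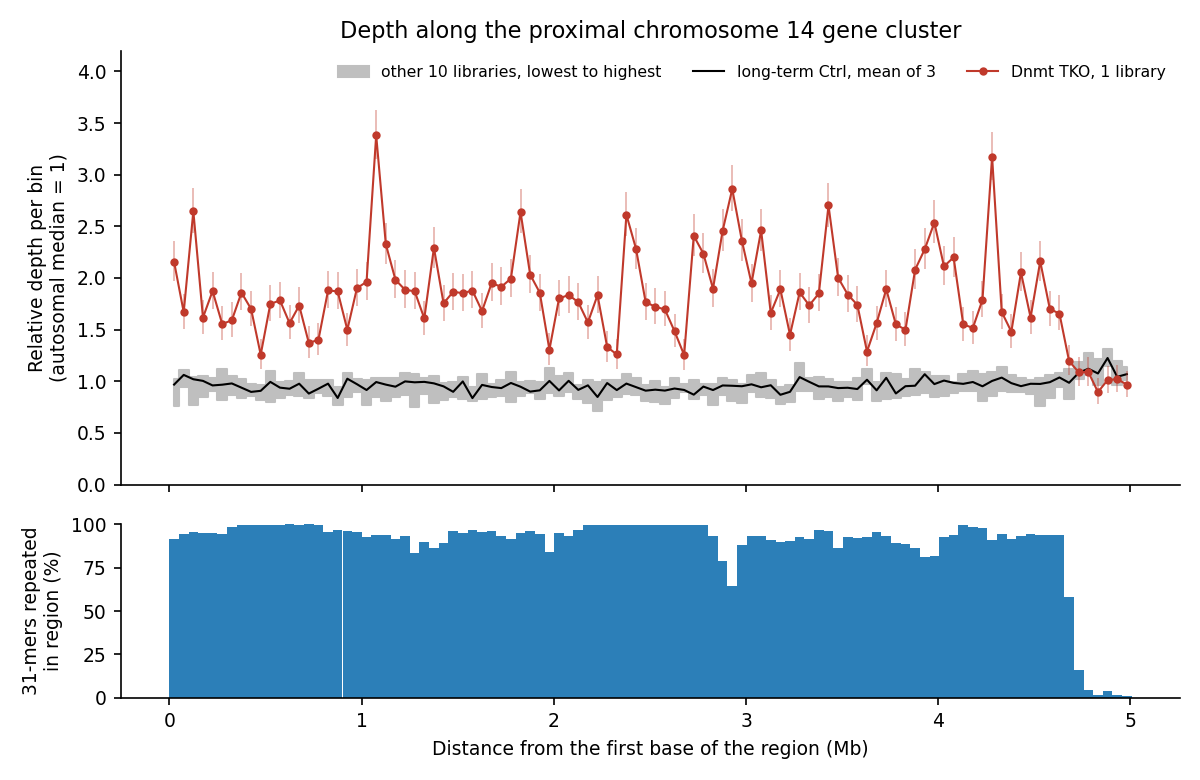
Relative depth of each of the 100 bins (upper panel; red, Dnmt TKO with 95% Poisson counting intervals; black, mean of 3 long-term Ctrl libraries; grey, lowest to highest of the other 10 libraries) and percent of 31-mers found again in the region (lower panel), against distance from the first base of the region. Dnmt TKO lies between 1.20 and 3.38 over the repeated bins, then meets the other libraries where the repeated share falls from 58.1% to 15.9%.

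The 3 highest folds were in separate places. The bin chr14:4051262-4101321, which overlaps Gm3115, had a relative depth of 3.38 in Dnmt TKO (95% Poisson interval 3.15 to 3.63) and of 0.851 to 1.03 in the other libraries. Its long-term Ctrl values were 0.956, 0.994 and 1.03, and the fold was 3.41. The bin chr14:7255107-7305166, which overlaps Gm3727 and Gm3739, had 3.17 (2.95 to 3.41) in Dnmt TKO against 0.860 to 1.09, a fold of 3.16. The bin chr14:5903485-5953544, which overlaps Gm3248, had 2.86 (2.65 to 3.09) against 0.806 to 1.01, a fold of 2.99. All 3 bins lay in the repeated part. The lowest folds were in remaining bins, down to 0.826. The bin chr14:7955948-8006007 with Gm45521, Dnase1l3 and the start of Abhd6 had a fold of 0.905. It is also the last bin inside the region limit, and the first bin outside, chr14:8006008-8056067, had a fold of 0.953. Neither lay above 1.

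The drop at the far end of the cluster took about 2 bins. Starting at chr14:7605527 the folds were 1.60, 1.21 and 1.00 in consecutive bins, while the repeated share went from 93.9% through 58.1% to 15.9%. The depth in Dnmt TKO thus fell over the same bins as the repeated sequence ended.

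Near-identical stretches of the cluster were also compared with each other. A stretch of 6 bins starting at chr14:5152584 has a near-identical second copy starting at chr14:5503004, and the 6 bin pairs share 94.7% to 95.2% of the 31-mers of the larger bin. The best matched pair, at chr14:5352824-5402883 and chr14:5703244-5753304, had folds of 2.67 and 2.77. The next pairs had 2.42 and 2.36, and 1.38 and 1.37. The 3 other pairs had 1.36 and 1.60, 1.63 and 1.87, and 2.16 and 1.86. The absolute log2 difference of the fold was 0.0081 to 0.050 in the first 3 of these pairs and 0.20 to 0.24 in the 3 others, beside a median of 0.28 over all 4371 pairs of repeated bins, whose median shared content was 15.3%. Reads that fit both bins of a pair are divided by the aligner, so that a pair is not 2 independent measurements. Other features tracked the fold weakly over the 94 repeated bins, which are one library and share their source. The fold had a Spearman rho of 0.17 (Pearson r 0.15) with the median number of 31-mer copies, of 0.25 (Pearson r 0.27) with the percent of 31-mers unique in the genome, and of -0.055 (Pearson r -0.15) with GC content. Mean GC content was 42.4% in the repeated bins, 44.9% in the remaining bins and 41.9% over autosomal bins.

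By gene, depth was taken as the overlap-weighted mean over bins, so that genes smaller than a bin carry the value of their bin. Gm2888 had a relative depth of 2.16 in Dnmt TKO. It had 0.902 and 0.876 in Ctrl before and after acute treatment, 0.849 and 0.912 in Tet iTKO likewise, 0.998, 0.887 and 1.02 in long-term Ctrl, and 0.933, 0.912 and 0.759 in long-term Tet iTKO. Dnmt TKO stood above all of these and the other groups overlapped. Gm2897 had 1.68 in Dnmt TKO, 1.03 and 0.990 in early Ctrl, 1.01 and 1.01 in early Tet iTKO, 0.976, 1.10 and 1.10 in long-term Ctrl, and 0.951, 1.08 and 0.942 in long-term Tet iTKO. Again the long-term groups overlapped. Gm10340 had 2.65 in Dnmt TKO, 0.959 and 0.907 in early Ctrl, 0.871 and 0.773 in early Tet iTKO, 1.02, 1.04 and 0.999 in long-term Ctrl, and 0.848, 0.899 and 0.969 in long-term Tet iTKO. For Gm10340 the 3 long-term Tet iTKO values lay below the 3 Ctrl values. The Dnmt TKO folds over long-term Ctrl were 2.23 for Gm2888, 1.59 for Gm2897 and 2.60 for Gm10340.

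Of the 98 protein-coding genes with a Gm number, 89 had a Dnmt TKO fold of 1.5 or more, with a median of 1.93 and a highest value of 3.41. The 2 with a fold under 1, Gm26661 and Gm45521, lie in the remaining bins. Within the repeated bins, all 99 genes had a higher depth in Dnmt TKO than in any other library, and the 7 with a fold below 1.5 (Gm10408, Gm3029, Gm8297, Gm3526, Gm3542, Gm9603 and Gm3460) ranged from 1.27 to 1.46. Orientation made little difference, with a median fold of 1.93 over 50 genes on the plus strand and of 1.93 over 49 on the minus strand. The 3 genes with other symbols inside the repeated part, D830030K20Rik, 2610042L04Rik and 4930555G01Rik, had folds of 1.95, 1.73 and 1.86.

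Genes past the end of the cluster had no such depth. Dnmt TKO had a fold of 0.905 for Dnase1l3 and of 0.949 for Abhd6, which runs past the region end. In the flank the first 5 genes were Rpp14 (a ribonuclease P subunit, 0.866), Pxk (a PX domain protein, 0.969), Pdhb (a pyruvate dehydrogenase subunit, 0.873), Kctd6 (an adaptor of a ubiquitin ligase, 0.831) and Acox2 (a peroxisomal oxidase, 0.824). All 9 flank genes had folds of 0.824 to 1.01. Dlg5 itself, at chr14:24133953-24245920, had 0.887 in Dnmt TKO and 0.832 to 0.976 in the other libraries, a fold of 0.957.

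**Figure D3:**
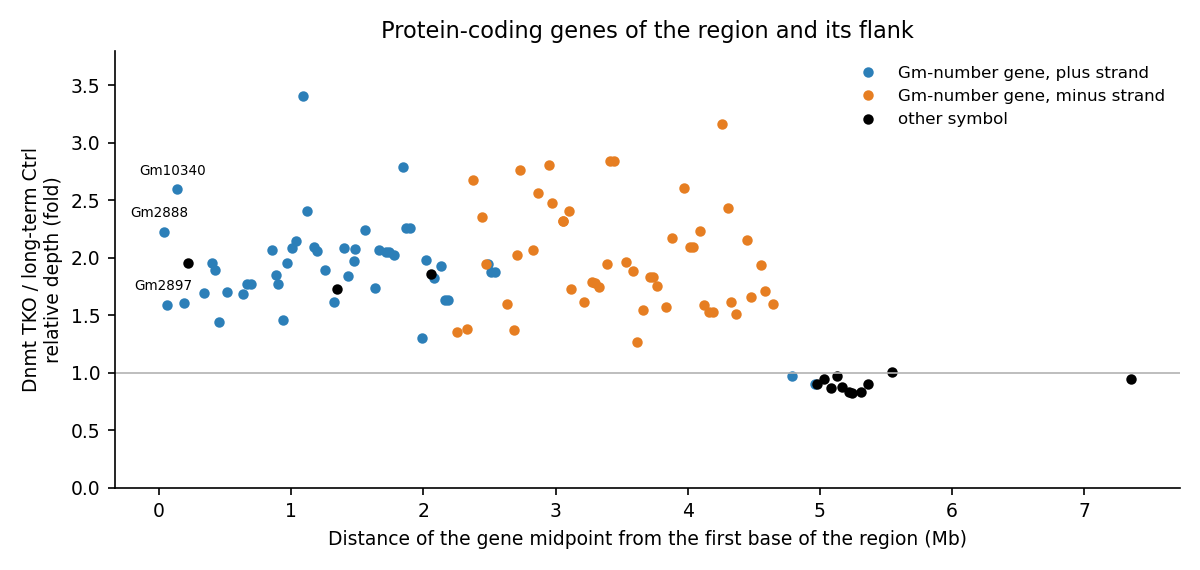
Fold of Dnmt TKO relative depth over the mean of long-term Ctrl for the protein-coding genes of the region and of its flank, leaving out 1 gene (vertical axis), against distance of the gene midpoint from the first base of the region. Gm-number genes of the plus strand (blue) and the minus strand (orange) in the repeated part lie between 1.27 and 3.41, and the genes shown past its end lie at 0.824 to 1.01.

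Sequence of the cluster outside the region rule showed the same pattern. Of 52858 bins outside the region, 3 consecutive ones at chr14:19469705-19619583, 11.5 Mb past its end, shared 88.5% to 97.5% of their 31-mers with it, and the next highest bin shared 49.3%. They overlap Gm2244, Gm2237 and Gm5458. Relative depth in Dnmt TKO was 1.32 (95% Poisson interval 1.18 to 1.48), 1.89 (1.72 to 2.08) and 2.12 (1.94 to 2.32), against 0.838 to 1.00, 0.893 to 1.05 and 0.967 to 1.17 in the other libraries. The folds were 1.38, 2.03 and 1.94. Dnmt TKO was above all other libraries in each of these bins, whereas in the following bin, with 7.91% shared 31-mers, it had 1.15, inside the range of 0.953 to 1.16. Since reads of the main cluster fit this stretch as well, depth of one place cannot be told apart from depth of the other.

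More distant relatives did not share the high depth. On chromosome 14 the last exon of Gm2888 had 7 further alignments at 75.3% to 75.8% identity and at positions from 43393244 to 44650319. The bins that held them had Dnmt TKO folds of 0.915 to 1.12 with a median of 1.06, and in 1 of the 7 Dnmt TKO was above all 10 other libraries. The bins of the 105 copies in the region had folds of 1.27 to 3.41. Since the region was chosen for its high depth in Dnmt TKO, this contrast is a description only. The 105 copies also lay in only 77 bins of that 1 library.

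**Figure D4:**
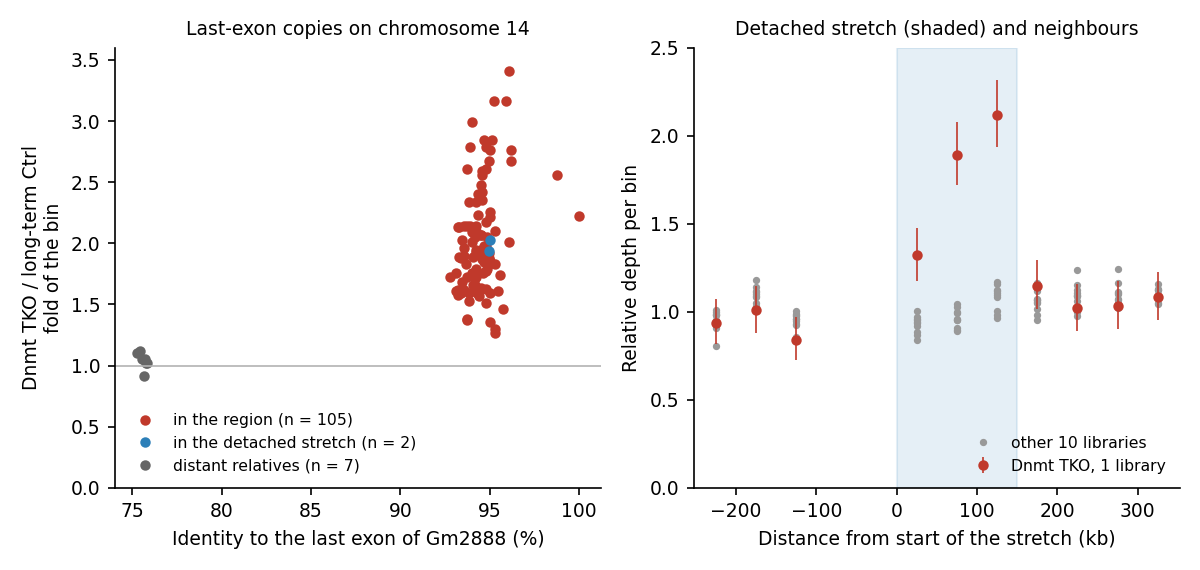
Left, fold of Dnmt TKO over long-term Ctrl in the bin of each last-exon copy (vertical axis) against its identity to the last exon of Gm2888. Right, relative depth of the bins of the detached stretch (shaded) and its neighbours in Dnmt TKO (red, 95% Poisson intervals) and in each of the other 10 libraries (grey), leaving out a bin with a depth over 19 in every library. Copies with 92.8% identity or more have folds of 1.27 to 3.41 and relatives with about 75% identity 0.915 to 1.12. The region that holds most of the copies was chosen for its high depth in Dnmt TKO.

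Depth of the cluster in long-term Tet iTKO was set against that in long-term Ctrl, with 3 libraries each, to see whether TET loss went with a change there. TET loss cannot be told apart from line or Y depth in this comparison. None of the 100 bins was called by limma on log2 relative depth, with a lowest adjusted p of 0.712 and 9 bins at an unadjusted p under 0.05, all lower in Tet iTKO. The 9 became 2 without long-term Tet iTKO replicate 3 and 5 without long-term Ctrl replicate 2, of which 1 was higher in Tet iTKO. Over all 47924 autosomal bins tested, 0.136% were called and 6.08% had an unadjusted p under 0.05. The largest difference was -0.20 ± 0.075 (SE) in the bin of Gm3558 at chr14:7505407-7555466 (limma adjusted p = 0.712). The bin of Gm10340 differed by -0.17 ± 0.073 (SE; limma adjusted p = 0.751). The median log2 difference over the region was -0.037, against 0.0002 over all autosomal bins, and 70 of the 100 bins were lower in Tet iTKO. The share of all autosomal bins that were lower was not counted. The groups did not overlap in 13 bins, 10 with Tet iTKO lower and 3 with it higher, where 11.3% of all autosomal bins did not overlap (5.56% lower and 5.75% higher). In windows of 500 kb, none of 10 was called by limma, the lowest adjusted p was 0.341, and 2 had an unadjusted p under 0.05, both lower in Tet iTKO.

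Mean relative depth over the repeated bins was 0.956 ± 0.0006 (SD, n = 3) in long-term Ctrl and 0.931 ± 0.0094 (SD, n = 3) in long-term Tet iTKO, a difference of -0.025. The 3 values of each group did not overlap. In the remaining bins the difference ran the other way, at 0.039, with 1.10 ± 0.018 and 1.14 ± 0.011. The flank means were 1.01 ± 0.015 and 0.992 ± 0.014. The SD of long-term Ctrl was smaller than counting alone gives, since the 95% counting interval of a long-term library mean was 1.16% to 1.41% to either side. The early Ctrl libraries, at 0.931 and 0.940, lay at the level of long-term Tet iTKO. No test was made of these means.

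The 6 long-term and 4 early libraries were compared, with genotype in the model. Early Tet iTKO pools the pre-treatment library, whose Tet genes were floxed but not yet deleted, with the acute library. This pooling also enters the contrast within Tet iTKO and the difference between genotypes given below. Time in culture cannot be told apart from line or Y depth in this comparison, nor from tamoxifen where the early library is pre-treatment. None of the 100 bins was called by limma. The lowest adjusted p was 0.546, and 8 bins had an unadjusted p under 0.05, 7 of them higher in long-term libraries, where 0.0501% of all autosomal bins were called and 6.37% had an unadjusted p under 0.05. The split became 3 higher and 3 lower without pre-treatment Tet iTKO, 4 and 3 without acute Ctrl, and 4 and 2 without long-term Ctrl replicate 1. With the acute libraries alone as early, 2 were higher and 3 lower. The bin with the lowest p, chr14:5202644-5252703, differed by -0.19 ± 0.059 (SE; limma adjusted p = 0.546). The median log2 difference over the region was 0.029, against 0.0006 over all autosomal bins, and 64 of 100 bins were higher in long-term libraries. The share of all autosomal bins that were higher was not counted. Windows of 500 kb gave no call by limma in the region (lowest adjusted p 0.229, 2 of 10 at an unadjusted p under 0.05). The repeated bins had a mean of 0.931 ± 0.013 (SD, n = 4) in the early and 0.944 ± 0.015 (SD, n = 6) in the long-term libraries. This difference of 0.013 was within the spread of either set.

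Within Ctrl, long-term against early gave no call by limma in the region (lowest adjusted p 0.582; 5 bins at an unadjusted p under 0.05, where 0.102% of autosomal bins were called and 5.19% had such an unadjusted p). The 5 became 2 without long-term Ctrl replicate 2 and 3 without pre-treatment Ctrl or long-term Ctrl replicate 1. Within Tet iTKO there was none either (lowest adjusted p 0.679; 9 bins at an unadjusted p under 0.05, where 0.0417% of autosomal bins were called and 6.15% had such a p). For the difference between genotypes in this stage contrast, limma called no bin of the region, with a lowest adjusted p of 0.871. In the region 7 bins had an unadjusted p under 0.05 by limma. Over all autosomal bins, 0.0835% were called and 5.08% had such a p. The 7 became 3 without pre-treatment Ctrl and 4 without long-term Ctrl replicate 1. Acute against pre-treatment had 1 library on each side and no test. The mean of the repeated bins differed by 0.009 in Ctrl and by 0.028 in Tet iTKO. The counting interval of each single mean, defined as for Dnmt TKO above, was 1.21% to 1.38% to either side. No interval was computed for the differences. In the detached stretch, none of the 3 bins was called for genotype, for stage or for the difference between genotypes, with limma adjusted p of at least 0.792.

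**Figure D5:**
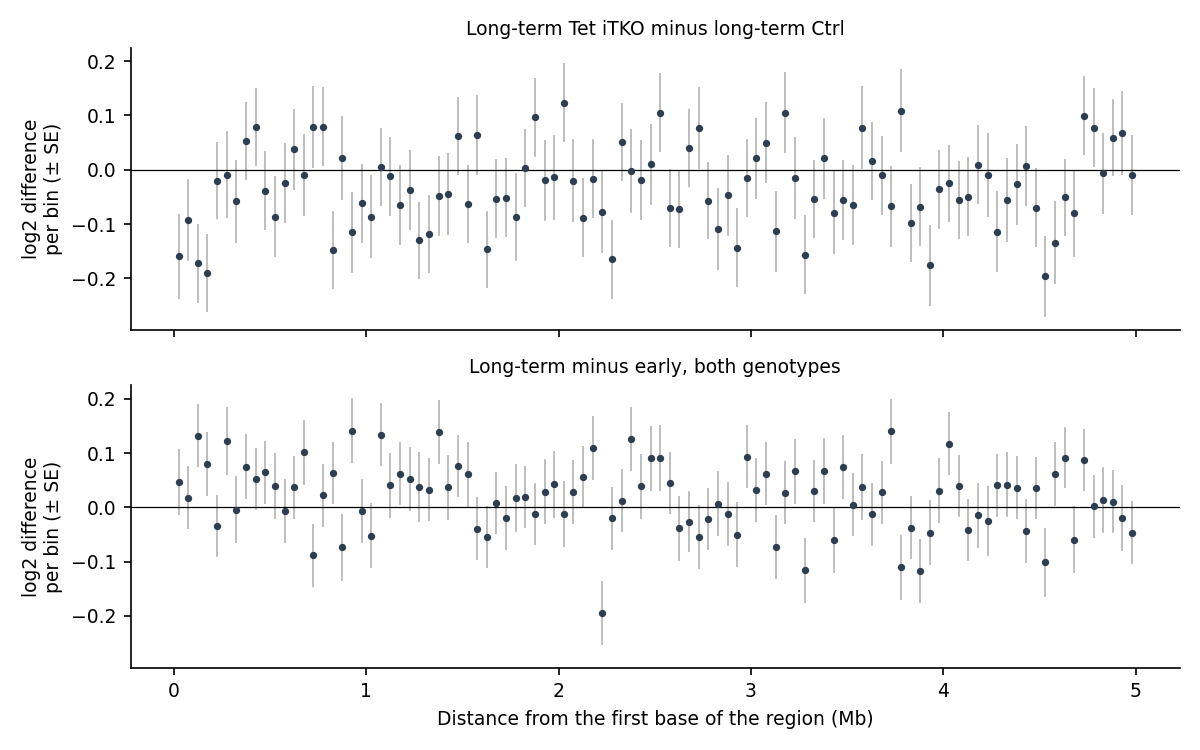
Log2 difference of relative depth per bin with its standard error (limma), for long-term Tet iTKO minus long-term Ctrl (upper panel) and long-term minus early libraries of both genotypes (lower panel), against distance from the first base of the region. Points scatter on both sides of 0 and reach -0.20 in the upper and -0.19 in the lower panel.

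Other parts of the genome with a like pattern over the 11 libraries were searched among the 254 autosomal windows of 500 kb whose log2 relative depth had an SD of 0.1 or more over libraries. The 5 most like the region mean, with a Pearson r of 0.994 to 0.998 over 11 libraries, all lay on chromosome 8. The correlation rests on the 1 Dnmt TKO library and is given as a description. In 4 of them Dnmt TKO had folds of 1.41 to 1.54, such as chr8:67643598-68143511 with Psd3 (1.47). These 4 were spread from chr8:47413612 to chr8:75693202. The paper reports aneuploidies in the Dnmt TKO line it used. Whether depth was raised along chromosome 8 as a whole in Dnmt TKO was not tested, so the windows may not be separate places. The window chr8:19503073-20106665, which overlaps 4930467E23Rik and Gm31371, had a relative depth of 5.24 in Dnmt TKO and 2.17 to 2.27 in the other libraries, a fold of 2.38. It was the only one of the 5 with a fold above that of the chromosome 14 cluster. Its fold was not set against the depth of the rest of chromosome 8.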

How the data were processed

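Genomic DNA of 11 bulk mESC samples was sequenced at low coverage with a PCR-free kit and single-end reads. The authors trimmed the reads and mapped them to mm10 with BWA-mem, and optical duplicates were taken out with Picard; how reads with several equal placements were counted is not given in the sources used here. The labels also list BSMAP 2.74v, which the methods use for bisulfite data. The deposited values are mean read coverage (depth, a signal) per bin, before any scaling or any correction for GC content and mappability; a deposited log2 column of the same depth was not used. Base sums of bins under 400 bases were multiples of 50 in 95.1% of cases, so that reads were counted as bases divided by 50, although the methods give a longer minimum read length.

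Depth was divided by the library's median autosomal bin depth. Bins with a mean relative depth of 0.1 or more (47924 autosomal bins, all 100 of the region) were tested on log2(relative depth + 0.01) with limma 3.58.1 in R 4.3.3 (lmFit, eBayes, two-sided, Benjamini-Hochberg over all bins, threshold 0.05), after a test on simulated data. The Tet iTKO comparison used the 6 long-term libraries, and that of stages all 10 Ctrl and Tet iTKO libraries. Copies were counted as 31-mers of the GRCm38 reference on both strands. Repeated bins have 50% or more of their 31-mers repeated in the region. Transcripts (e-value 1e-10) and upstream sequences (e-value 1e-20) were aligned with BLAST. Named genes were the 3 members, protein-coding genes with other symbols in the region, the first 5 of the flank, and Dlg5; named bins were the 3 highest and 3 lowest Dnmt TKO folds and the lowest p-values. Of these, 1 gene and 2 of the low-fold bins are not reported here. Same-numbered long-term libraries were checked for pairing and correlated at -0.0051 to 0.0019, so that numbers do not pair them. The region, members and lists were chosen with earlier results of these data known.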

Additional observations from a re-analysis of the deposited data

How the results depend on the processing

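No bin of the region was called under any of the 84 alternative fits of the 5 limma comparisons, 38 with a changed setting and 46 that leave out a library. In each comparison the fit without the filter on low bins repeats the main fit, since that filter removed no autosomal bin. The fold of the region mean in Dnmt TKO was 1.90, 1.90 with GC correction, 1.88 with scaling to the mean autosomal depth and 1.97 over the repeated bins alone, which were added after seeing the data. It was 1.89 to 1.90 without each long-term Ctrl replicate, and the Tet iTKO replicates do not enter it. The region mean of long-term Tet iTKO minus Ctrl was -0.029 to -0.021 under other settings and -0.026 to -0.017 without each replicate, and long-term minus early was 0.0082 to 0.016 under other settings and 0.010 to 0.016 without each replicate. The 86 bins with a fold of 1.5 or more became 86 or 85 with 5 or 10 reference libraries, and the 92 genes became 90 with the value of the bin of largest overlap.

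Counts of autosomal bins called, which set the background, moved more, and the cause was not tested. For Tet iTKO against Ctrl, 65 bins were called and 17 of the 500 kb windows, and 47 to 111 bins without 1 library (111 without long-term Tet iTKO replicate 3). With the replicate block 79 bins were called. Long-term against early had 24 calls, 15 with relative depth 0.5 to 1.5, 0 in windows (639 at an unadjusted p under 0.05 by limma), 5 with a variance trend and robust fit, 12 with acute libraries alone as early, and 2 to 29 without 1 library (2 without pre-treatment Ctrl, 3 without acute Ctrl, 14 without long-term Ctrl replicate 2 or 3). Within Ctrl there were 49 calls, 28 with relative depth 0.5 to 1.5, 21 in windows and 31 to 55 without 1 library (31 without acute Ctrl). Within Tet iTKO there were 20, 5 in windows and 3 to 36 without 1 library (8 without the pre-treatment and 3 without the acute library, 36 without long-term replicate 3). For the difference between genotypes there were 40, 16 in windows and 25 to 47 without 1 library (25 without pre-treatment Ctrl). Where this leaves 1 early library of a genotype, that library is assumed to vary like the other groups.

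About 250 reads per bin limit what can be seen in a single bin, and 3 libraries a group and 1 Dnmt TKO library limit the comparisons.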
